A study of Mus musculus with 14 samples.

Results

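The 10 genes described here are the immediate early and AP-1 transcription factor genes Fos, Fosb, Fosl1, Fosl2, Jun, Junb, Jund, Atf3, Egr1 and Myc, which were matched by symbol. All 10 were listed among the 16481 genes of the stellate cell table and among the 54532 genes of the liver table. Expression was measured by RNA-Seq in mouse pancreatic stellate cells (PSCs). Cells of 3 preparations were each given DMSO, the solvent, or 25 μM of Yoda1, an agonist of the calcium-permeable channel PIEZO1. The PSCs were cultured on Matrigel for 3 days in medium with 5% serum. The treatment time is 24 hours in the Methods and 72 hours in a supplementary legend. The second set of libraries was from whole liver, with 2 WT controls, 3 TRPV4-KO animals and 3 WT animals treated with GSK219. TRPV4-KO is a global knockout of the calcium channel TRPV4, and GSK219 (GSK2193874) is a TRPV4 antagonist, given by daily gavage at 10 mg/kg. According to the Methods, the mice of both sets, including those the PSCs came from, were 8 to 12 weeks old and of both sexes. In the mice of the liver set, the pancreas had been injected with 100000 KPCY cells 20 days before the livers were taken. KPCY cells are mouse pancreatic cancer cells that still carry functional TRPV4. The Methods use the Piezo1 fl/fl line, without a Cre driver, as WT. Whether the WT mice without GSK219 received its carrier is not given in the sources used here.

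Immediate early genes are transcribed within minutes of a stimulus and need no new protein for this. FOS proteins (FOS, FOSB and the FOS-like FOSL1 and FOSL2) pair with JUN proteins (JUN, JUNB and JUND) to form AP-1, a dimer that binds DNA. ATF3 joins the same dimers, while EGR1 is a zinc finger factor and MYC pairs with MAX. Calcium entry, growth factors and inflammatory cytokines are known inducers of several of these genes, in fibroblasts and in liver alike.

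The promoters of Fos, Fosb, Jun and Junb are shown because inducible transcription of these genes is read from short motifs close to the start. Promoter windows in the RefSeq table of GRCm38.p6 (250 bases before to 50 bases after the start) were found for 7 of the 10 genes. The set of windows used held no entry for Egr1, Fosl1 and Myc, and other RefSeq sources were not searched. Each line gives the bases before the start that lie outside annotated exons, 5′ to 3′ on the gene's strand. Capitals mark TGACG (an arm of the palindromic cAMP response element, where CREB and ATF proteins bind), GCGNGGGCG (an EGR site) and CCAAT. The Fos stretch is chr12:85473640-85473889 on the plus strand, the Fosb stretch chr7:19310052-19310295, the Jun stretch chr4:95052223-95052472 and the Junb stretch chr8:84978749-84978998, the last 3 on the minus strand.
Fos: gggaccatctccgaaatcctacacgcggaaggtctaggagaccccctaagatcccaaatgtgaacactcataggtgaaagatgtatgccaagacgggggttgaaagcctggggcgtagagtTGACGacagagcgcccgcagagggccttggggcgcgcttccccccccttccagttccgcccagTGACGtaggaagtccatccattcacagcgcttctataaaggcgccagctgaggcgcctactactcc
Fosb: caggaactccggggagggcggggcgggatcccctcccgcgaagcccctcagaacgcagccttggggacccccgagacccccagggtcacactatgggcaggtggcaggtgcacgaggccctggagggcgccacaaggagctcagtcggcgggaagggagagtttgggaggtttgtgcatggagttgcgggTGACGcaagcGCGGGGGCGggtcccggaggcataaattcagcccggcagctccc
Jun: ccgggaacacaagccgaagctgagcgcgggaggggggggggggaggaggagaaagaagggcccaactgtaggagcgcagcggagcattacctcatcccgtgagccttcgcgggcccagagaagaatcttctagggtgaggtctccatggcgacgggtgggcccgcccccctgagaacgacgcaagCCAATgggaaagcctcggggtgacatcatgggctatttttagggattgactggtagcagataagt
Junb: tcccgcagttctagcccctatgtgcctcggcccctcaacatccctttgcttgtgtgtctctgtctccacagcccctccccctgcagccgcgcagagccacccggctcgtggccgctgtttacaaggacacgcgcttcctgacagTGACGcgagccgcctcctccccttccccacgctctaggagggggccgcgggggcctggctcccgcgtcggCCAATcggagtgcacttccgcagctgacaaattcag

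Both strands of the whole window were searched. TGACG was present in 4 of the 7 windows (Fos, Fosb, Junb and Atf3) and in 20.8% of all 32851 promoters of the table. The EGR site was present in 2 (Fosb and Fosl2), against 5.55% of all promoters, and CCAAT in 3 (Jun, Junb and Atf3), against 37.4%. In Fos the TGACG motifs began 129 and 66 bases before the start, in Fosb 60 bases and in Junb 106 bases before it. The AP-1 site TGANTCA, found in 7.81% of all promoters, and the CArG box, the binding motif of SRF, found in 1.63%, were in none of the 7. Only exact matches inside these windows were counted. Sites further from the start, or differing from the pattern, were not searched. The windows of Jund, Atf3 and Fosl2 do not cover the gene start given in the liver table, since RefSeq places theirs elsewhere. A match is a run of letters and not a measured binding site.

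Between 15567031 and 17395299 reads per liver had been counted on genes, and between 27312894 and 39070539 reads per PSC library were recovered from the deposited values. No replicates agreed within sampling noise, so each library counted as 1 sample. The targeted channel was checked first. Trpv4 had 43 and 53 counts in the WT livers, 15, 5 and 23 in the TRPV4-KO livers and 20, 30 and 36 in the GSK219 livers. It was lower in each TRPV4-KO liver than in both WT livers, by 1.71 ± 0.50 (SE) on the log2 scale, with an adjusted p of 0.161 by edgeR and 0.0373 by DESeq2, and reads on the gene remained. Piezo1, the target of Yoda1, averaged 15858 ± 1355 in the 3 DMSO libraries and 14972 ± 1103 in the 3 Yoda1 libraries (deposited values, SD). Hepatocyte markers reached a summed level of 52082 CPM or more in each liver (CPM, counts divided by library size), and stellate cell or fibroblast markers to at least 13782 CPM in each PSC library. Most of the latter are shared with other fibroblasts, and the stellate cell markers Gfap and Lrat were not listed in the PSC table.

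Levels between genes were compared per length, as RPKM (CPM divided by the exon length in kilobases given in the liver table). In DMSO-treated PSCs, Junb was the most abundant of the 10 at 99.4 ± 15.4 RPKM (SD, n = 3), followed by Jund at 72.7 ± 1.49 and Myc at 45.5 ± 2.92. Jun (30.3 ± 2.19), Fosl2 (22.7 ± 1.26), Fosl1 (16.4 ± 1.09) and Egr1 (13.0 ± 1.86) took the middle. Fos had 4.59 ± 0.594 and Atf3 4.06 ± 0.482 RPKM, and Fosb was lowest at 0.725 ± 0.121. Fos and Atf3 overlapped between libraries, whereas all other neighbours in this order did not overlap. With Yoda1, Jund (95.6 ± 7.40 RPKM) stood above Junb (82.2 ± 13.3) with overlapping libraries, and Fosl2 (31.5 ± 0.344) above Jun (28.3 ± 2.02) without overlap.

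In WT livers the order began with Junb at 55.7 ± 8.37 RPKM (SD, n = 2), Jund at 27.2 ± 4.83 and Egr1 at 12.1 ± 1.73. Jun had 7.11 ± 0.699, Fosl2 3.42 ± 0.661, Myc 2.41 ± 0.289, Fos 2.40 ± 1.09 and Atf3 1.72 ± 0.900 RPKM. The last 3 overlapped between neighbours. Fosl1 (0.333 ± 0.0606) and Fosb (0.0586 ± 0.0433) were near the limit of detection, with 8 and 11 counts of Fosl1 and 9 and 3 counts of Fosb in the WT livers. Levels of PSCs and livers come from tables that were made separately, and no test was made between them.

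**Figure D1:**
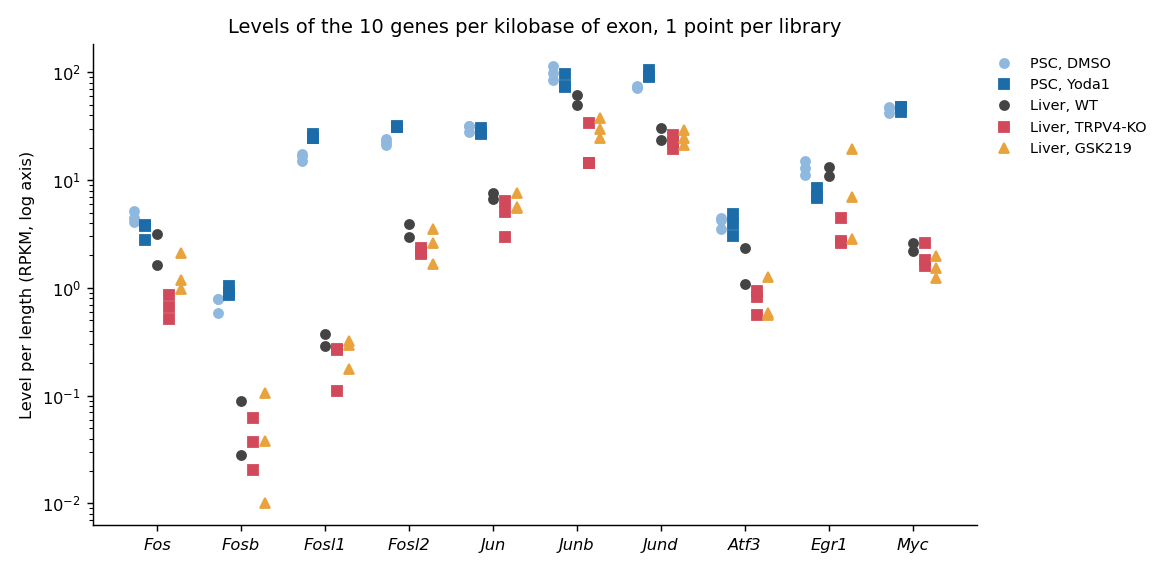
Level per length (RPKM, log axis) of each of the 10 genes, with 1 point per library and the groups side by side. Junb and Jund stood highest in both PSCs and livers, and Fosb lowest, and Fosl1 ran from 16.4 RPKM in DMSO-treated PSCs to 0.333 RPKM in WT livers.

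Yoda1 was set against DMSO to ask which genes differ in PSCs 24 or 72 hours after the agonist. No earlier time was sampled, so a response within minutes could not be seen. By limma's test with the preparation as a replicate block, none of the 10 genes passed an adjusted p of 0.05, and 7 of them had an unadjusted p under 0.05, as had 4563 of the 15145 genes tested. In this comparison 3.99% of the 15145 genes tested were called (319 higher and 286 lower). The FOS-like genes Fosl1 and Fosl2 and the JUN gene Jund stood higher with Yoda1, Fos, Junb and Egr1 lower, and Jun, Atf3 and Myc close to their DMSO values. All of these differences were under 2-fold. edgeR on the recovered reads, with the same block, called 3 of the 10 higher (Fosl1, Fosl2 and Jund) and 3 lower (Fos, Junb and Egr1), against 9.2% and 8.88% of all genes tested. Without the block, limma called Fosl1 and Fosl2 higher, against 1.2% of all genes.

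FOSL1 and FOSL2 are the FOS-like proteins that lack the strong activation domain of FOS. Fosl1 (ENSMUSG00000024912, chromosome 19, 5447703 to 5455945, in GRCm38 coordinates as for all genes here) had deposited values (reads divided by a size factor) of 939, 978 and 858 with DMSO and 1387, 1391 and 1499 with Yoda1. All 3 Yoda1 values lay above all 3 DMSO values. The difference was 0.62 ± 0.09 (SE) on the log2 scale, or 1.54-fold, with an adjusted p of 0.0531 with the block, 0.0315 without it and 0.00481 by edgeR on reads. Fosl2 (ENSMUSG00000029135, chromosome 5, 32135801 to 32157842) had values of 7672, 7253 and 6857 with DMSO and 9953, 10158 and 9950 with Yoda1. The treatments did not overlap, and the Yoda1 values varied little between preparations. Its log2 difference was 0.47 ± 0.06 (SE), with adjusted p-values of 0.0524, 0.0383 and 0.00431 in the same order.

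Fos and Fosb encode the FOS proteins with the full activation domain. Fos (ENSMUSG00000021250, chromosome 12, 85473890 to 85477273) had values of 315, 349 and 407 with DMSO and 216, 295 and 289 with Yoda1, so that every Yoda1 value lay below every DMSO value. The log2 difference was -0.42 ± 0.09 (SE), with an adjusted p of 0.0806 with the block, 0.219 without it and 0.0341 by edgeR. Fosb (ENSMUSG00000003545, chromosome 7, 19302696 to 19310051), with 121, 164 and 165 in DMSO and 177, 184 and 214 in Yoda1, lay on the other side. It was higher with Yoda1 without overlap, by 0.36 ± 0.10 (SE), and no adjusted p passed the threshold (0.114 by limma with the block and 0.0882 by edgeR). The FOS family thus held 1 gene below and 3 genes above its DMSO values.

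Of the JUN genes, JUN is the strongest activator, JUNB often limits it, and JUND is present without stimulation in many cells. Jund (ENSMUSG00000071076, chromosome 8, 70698949 to 70700616) had values of 3944, 3990 and 4102 with DMSO and 5002, 5027 and 5698 with Yoda1, without overlap. The log2 difference was 0.38 ± 0.06 (SE), with an adjusted p of 0.0642 by limma with the block and 0.00661 by edgeR. Junb (ENSMUSG00000052837, chromosome 8, 84974484 to 84978718) had 6409, 7554 and 8756 with DMSO and 5597, 5698 and 7362 with Yoda1. It was lower in each of the 3 preparations, while the treatments overlapped because preparation 3 was high under both. The difference of -0.28 ± 0.07 (SE) had an adjusted p of 0.104 with the block, 0.374 without it and 0.0254 by edgeR. Jun (ENSMUSG00000052684, chromosome 4, 95049034 to 95052222) had 2933, 3323 and 3333 with DMSO and 2836, 2860 and 3202 with Yoda1, a difference of -0.11 ± 0.07 (SE) that no fit called (adjusted p = 0.344 by limma with the block).

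EGR1, a zinc finger factor that serum and mechanical load induce, had the widest difference among the 10. Egr1 (ENSMUSG00000038418, chromosome 18, 34859823 to 34864984) had values of 1666, 2212 and 1921 with DMSO and 1250, 1043 and 1013 with Yoda1, without overlap. Its log2 difference was -0.81 ± 0.16 (SE), 1.75-fold lower with Yoda1, with adjusted p-values of 0.0788 with the block, 0.054 without it and 0.0204 by edgeR. The differences within preparations were unequal, at -0.41, -1.08 and -0.92 for preparations 1, 2 and 3.

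ATF3 is a stress-induced partner of JUN proteins, and MYC drives growth genes. Atf3 (ENSMUSG00000026628, chromosome 1, 191170296 to 191218039) had values of 251, 315 and 302 with DMSO and 215, 277 and 339 with Yoda1, lower in preparations 1 and 2 and higher in preparation 3. Its log2 difference was -0.08 ± 0.10 (SE; limma, adjusted p = 0.653). Myc (ENSMUSG00000022346, chromosome 15, 61985391 to 61990374) had 3808, 4157 and 4315 with DMSO and 4283, 4252 and 3792 with Yoda1, a difference of 0.01 ± 0.09 (SE; limma, adjusted p = 0.975). Both genes changed sign between preparations.

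**Figure D2:**
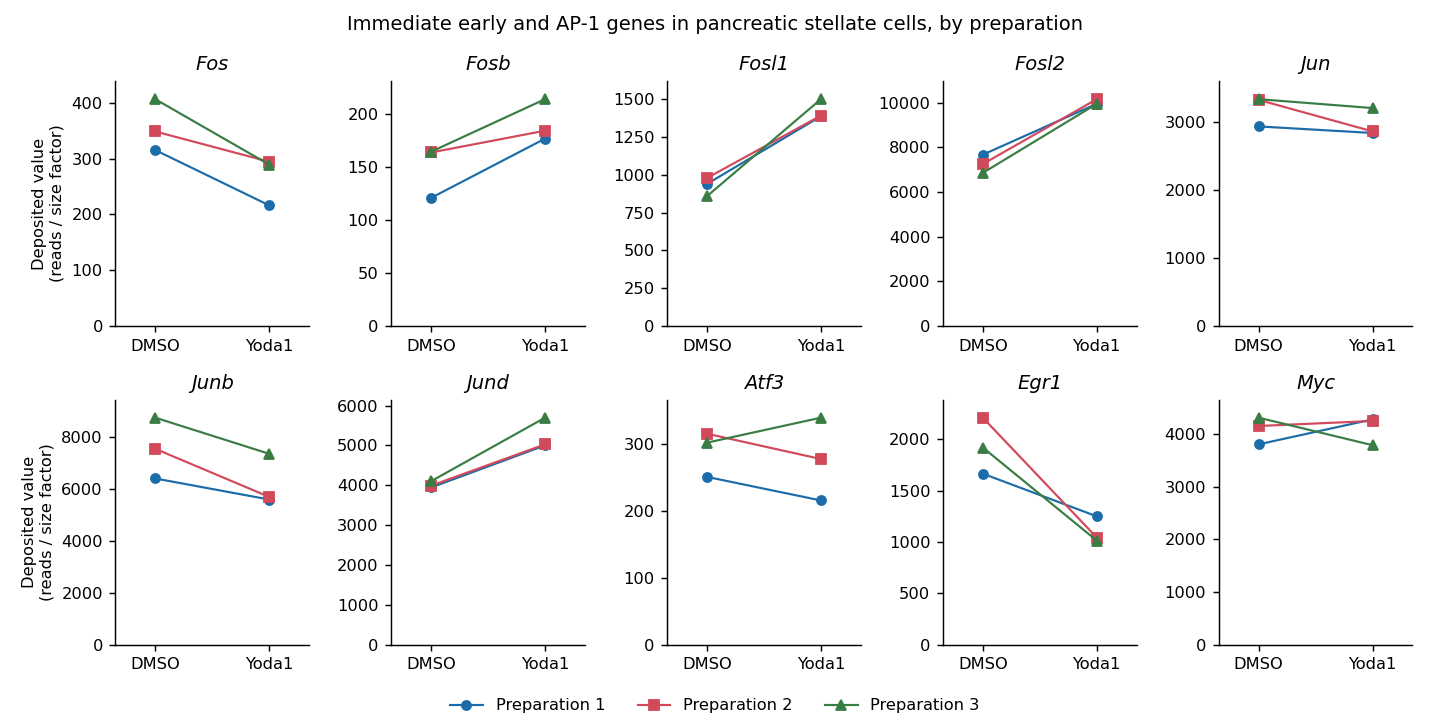
Deposited values of the 10 genes in PSCs (reads divided by a size factor, axes from 0), with DMSO and Yoda1 joined by a line for each of the 3 preparations. Lines rise in all 3 preparations for Fosb, Fosl1, Fosl2 and Jund, fall in all 3 for Fos, Jun, Junb and Egr1, and go both ways for Atf3 and Myc.

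Counted by overlap, 4 of the 10 genes were higher with Yoda1 in every library than in any DMSO library (Fosb, Fosl1, Fosl2 and Jund), where 14.9% of all genes tested were. Another 2 were lower in this way (Fos and Egr1), against 15.1%. The median log2 difference of the 10 was -0.04, and that of all genes tested -0.01. Markers of cell types moved with the treatment. The 10 listed stellate cell or fibroblast markers summed to 27585 to 30659 CPM with DMSO and 13782 to 17145 CPM with Yoda1, without overlap. Of these 10, 8 had a lower and 2 a higher mean with Yoda1, and limma called Col3a1, Vim, Lum and Dcn lower and Pdgfra higher, while edgeR called 8 lower and 1 higher, and limma without the replicate block 4 lower and 0 higher. The 5 listed endothelial markers summed to 52.4 to 63.7 CPM with DMSO and 35.3 to 42.0 CPM with Yoda1, but 4 of the 5 had a higher mean with Yoda1, the median log2 difference was 0.82, Lyve1 was called higher and Kdr, which made up most of the sum, lower. In the same order, the 6 listed Kupffer cell markers summed to 20.2 to 25.9 and 9.10 to 17.2 CPM, and the 6 listed leukocyte markers, with 1 at 0 in a Yoda1 library, to 79.6 to 85.6 and 74.4 to 114.5 CPM. The 7 listed acinar markers overlapped (33.1 to 196.0 and 40.1 to 391.1 CPM), as did the 8 duct markers (2238 to 3177 and 1784 to 4030 CPM). The hepatocyte markers, of which 2 of 8 were listed, reached 8.06 CPM, and the neutrophil markers, of which 1 of 11 was listed, 0.373 CPM. Their part in the values of the 10 genes was not tested.

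The wider immediate early program was described through fixed lists. Of 48 tested other immediate early genes, limma called 8 higher and 1 lower with Yoda1, and edgeR on reads called 17 higher and 3 lower. Of all 15145 genes, limma called 3.99% in either direction, and edgeR 9.2% higher and 8.88% lower. Without the replicate block limma called 3 of the list higher and 0 lower. The list's median log2 difference was 0.08. Klf2, a flow-responsive zinc finger factor, had values of 334, 289 and 255 with DMSO and 601, 622 and 592 with Yoda1, a rise of 1.05 ± 0.10 (SE; limma, adjusted p = 0.0381). Klf4, a related factor, rose by 0.90 ± 0.09 (SE; limma, adjusted p = 0.0421), from 1128, 1179 and 1040 to 2348, 2264 and 1692. Nr4a3, an orphan nuclear receptor, rose by 1.12 ± 0.12 (SE; limma, adjusted p = 0.043), from 71.1, 65.1 and 51.5 to 129.8, 169.5 and 113.1.

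Cebpb, a bZIP factor of inflammatory genes, rose by 0.69 ± 0.07 (SE; limma, adjusted p = 0.041), from 4968, 4938 and 3944 to 7574, 7740 and 6892. Gadd45g, a growth arrest gene, fell by 0.84 on the log2 scale (SE 0.08; limma, adjusted p = 0.041), from 3955, 3453 and 4183 to 2136, 1767 and 2626. The other 4 genes of this list called higher were Nr4a1, Errfi1, Rgs2 and Btg1, which are named after their values were seen. On leaving out any 1 preparation, limma called no gene at all, and the adjusted p-values of Klf2, Klf4, Nr4a3, Cebpb and Gadd45g were at least 0.0776. Without the block, Klf2 and Klf4 were still called (adjusted p = 0.0255 and 0.0469 by limma), and Nr4a3, Cebpb and Gadd45g had adjusted p-values of 0.0541, 0.0513 and 0.0681. Neither limma with the block nor edgeR called any of the 8 tested genes of the other AP-1 and small Maf list, whose median was 0.08.

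Among 20 genes known as AP-1 targets, limma called 2 higher and none lower, and edgeR 7 higher and 4 lower. Beside this and the next PSC lists, limma called 3.99% of all genes in either direction, and edgeR 9.2% higher and 8.88% lower. Spp1, which encodes osteopontin, had values of 6681, 8591 and 9345 with DMSO and 20498, 31794 and 29113 with Yoda1, a rise of 1.71 ± 0.08 (SE; limma, adjusted p = 0.0355). The cytokine gene Il11 rose by 0.83 ± 0.05 (SE; limma with the block, adjusted p = 0.0355), from 657, 1031 and 1650 to 1136, 1862 and 2963. Preparations differed more in Il11 than treatments did, and without the block its adjusted p was 0.369.

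Of 12 EGR1 cofactors and targets, limma called the growth factor gene Fgf2 higher (0.71 ± 0.08, SE; limma, adjusted p = 0.0461), while edgeR called 2 of this list higher and 3 lower, and 8 of the 12 had a lower mean with Yoda1 (median -0.12). Of 27 upstream kinases and factors it called Crem, a cAMP-responsive bZIP gene, higher (0.55 ± 0.06, SE; limma, adjusted p = 0.0421), while edgeR called 3 higher and 4 lower (median 0.01). Of 9 MYC partners and antagonists it called Mxi1, a MYC antagonist, higher (0.54 ± 0.05, SE; limma, adjusted p = 0.0407), a call that was lost without the block (adjusted p = 0.161), while edgeR called 2 higher and 1 lower. None of the 20 MYC targets was called by limma, and 12 of them had an unadjusted p under 0.05, as had 4563 of all 15145 genes. Of these 20, 18 had a lower mean with Yoda1, the median was -0.20, and edgeR on reads called 10 lower. None of the 14 ATF4-ATF3 stress response genes was called by limma (4 with an unadjusted p under 0.05), and edgeR called 2 higher.

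In the livers, the WT group was set against each of the other groups to ask what loss or block of TRPV4 changes in the liver of a tumor-bearing mouse. Fos, Junb and Egr1 had higher levels in both WT livers than in all 3 TRPV4-KO livers, by 2.66-fold to 3.70-fold, but edgeR called none of the 8 members tested. Fosb and Fosl1 had too few counts to be tested. In all, 0.291% of the 15118 genes tested were called (25 higher in WT and 19 lower), and 1291 without TRPV4-KO replicate 3, when Fos and Junb were among them. Each of the 8 tested members had a higher mean in WT than in TRPV4-KO, with a median log2 difference of 0.90 against -0.01 for all genes, and 5 had an unadjusted p under 0.05, as had 2586 of the 15118 genes. In 6 of the 8 (Fos, Fosl2, Jun, Junb, Atf3 and Egr1) the groups did not overlap, where 17.7% of all genes were higher in WT without overlap. DESeq2 called 2 of the 8, Fos and Junb, against 3.21% of all genes.

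Fos had 62 and 128 counts in the WT livers, 19, 24 and 35 in the TRPV4-KO livers and 78, 38 and 47 in the GSK219 livers. The WT livers stood above all TRPV4-KO livers, while GSK219 replicate 1 lay between both WT values. Fos was 3.53-fold higher in WT than in TRPV4-KO, with a log2 difference of 1.82 ± 0.43 (SE) and an adjusted p of 0.119 by edgeR and 0.00805 by DESeq2. Without TRPV4-KO replicate 3, edgeR gave 2.03 and an adjusted p of 0.0439, and with no filter on low counts 1.79 and 0.0445. Leaving out any other liver gave 1.27 to 2.23 with adjusted p-values up to 0.376, the lowest difference without WT replicate 2, and with only the groups compared the adjusted p was 0.177. Its promoter holds 2 of the TGACG motifs shown above, and a link between these motifs and the liver levels was not tested.

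Junb had 1852 and 2433 counts in the WT livers, 525, 516 and 1344 in the TRPV4-KO livers and 1368, 1145 and 950 in the GSK219 livers. Both WT livers stood above all 6 others, and TRPV4-KO replicate 3 stood apart from the other two. The log2 difference of WT and TRPV4-KO was 1.41 ± 0.38 (SE), with an adjusted p of 0.151 by edgeR and 0.00739 by DESeq2. Without TRPV4-KO replicate 3 the value was 1.95, with an adjusted p of 0.00649 by edgeR. Leaving out TRPV4-KO replicate 1 or 2 gave at most 1.21 (adjusted p = 0.378 and 0.376), without WT replicate 1 the adjusted p was 0.570, and with no filter on low counts it was 0.278.

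Egr1 had 965 and 836 counts in WT, 193, 307 and 204 in TRPV4-KO and 1383, 514 and 215 in GSK219. TRPV4-KO livers were low and close together, whereas the GSK219 livers spread from the TRPV4-KO level to above WT. The WT minus TRPV4-KO difference was 1.89 ± 0.70 (SE), 3.70-fold, with an adjusted p of 0.24 by edgeR and 0.158 by DESeq2. The level in CPM was 54.2 ± 7.76 (SD, n = 2) in WT, 14.6 ± 4.56 (SD, n = 3) in TRPV4-KO and 43.6 ± 38.7 (SD, n = 3) in GSK219.

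Atf3 had 82 and 40 counts in WT, 28, 31 and 21 in TRPV4-KO and 19, 21 and 45 in GSK219. The WT values were above those of TRPV4-KO but differed from each other by more than WT replicate 2 differed from any TRPV4-KO liver, and the log2 difference was 1.15 ± 0.48 (SE; edgeR, adjusted p = 0.269). Jun had 341 and 416 counts in WT, 257, 317 and 163 in TRPV4-KO and 279, 398 and 302 in GSK219, a difference from TRPV4-KO of 0.56 ± 0.29 (SE; edgeR, adjusted p = 0.376). Fosl2, with 608 and 490 counts in WT, 357, 308 and 363 in TRPV4-KO and 255, 562 and 427 in GSK219, differed by 0.64 ± 0.27 (SE; edgeR, adjusted p = 0.278).

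Jund and Myc overlapped between WT and TRPV4-KO. Jund had 641 and 876 counts in WT, 597, 673 and 566 in TRPV4-KO and 646, 808 and 586 in GSK219, with a log2 difference from TRPV4-KO of 0.25 ± 0.19 (SE; edgeR, adjusted p = 0.535). Myc had 115 and 103 counts in WT, 113, 76 and 75 in TRPV4-KO and 53, 89 and 70 in GSK219, with a difference of 0.26 ± 0.29 (SE; edgeR, adjusted p = 0.703). Counts of the untested genes were low in every liver. Fosb had 9 and 3 counts in WT, 2, 6 and 4 in TRPV4-KO and 1, 11 and 4 in GSK219. Fosl1 had 8 and 11 counts in WT, 3, 7 and 8 in TRPV4-KO and 8, 9 and 5 in GSK219. Scaled by library size, both WT values of Fosl1 lay above all TRPV4-KO values.

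**Figure D3:**
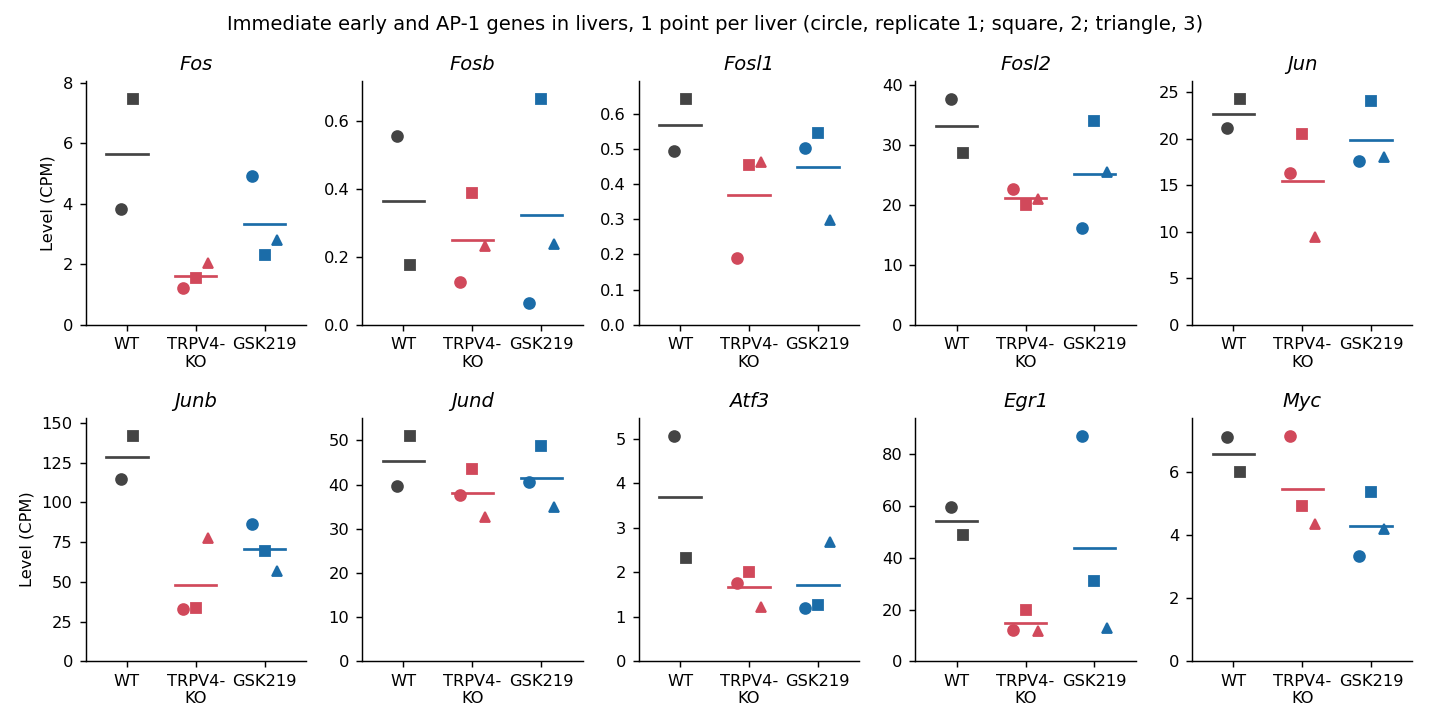
Level of the 10 genes in livers in CPM (axes from 0), with 1 point per liver and a bar at the mean of the 2 WT, 3 TRPV4-KO and 3 GSK219 livers. Both WT livers lie above all TRPV4-KO livers for Fos, Fosl1, Fosl2, Jun, Junb, Atf3 and Egr1, and the GSK219 livers spread widely for Egr1. Fosl1 was near the limit of detection and was not tested.

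Against GSK219, which shares its WT livers with the comparison above, no gene of the 15118 was called by edgeR (0.0%), and 1242 had an unadjusted p under 0.05. DESeq2 called 115 genes and none of the members. The log2 differences of WT minus GSK219 were 0.76 ± 0.42 (SE) for Fos, 0.86 ± 0.38 for Junb, 1.10 ± 0.47 for Atf3 and 0.31 ± 0.69 for Egr1. Fosl2 (0.39 ± 0.27), Jun (0.19 ± 0.29), Jund (0.13 ± 0.19) and Myc (0.61 ± 0.29) were also above 0. Atf3 alone had an unadjusted p under 0.05. The edgeR adjusted p-values of the 8 ran from 0.603 for Atf3 to 0.959 for Egr1. Both WT livers lay above all GSK219 livers for 2 of the 8, Junb and Myc, where 15.6% of all genes did so. In the TRPV4-KO comparison the same fit gave 1.82 for Fos, 1.41 for Junb, 1.15 for Atf3 and 1.89 for Egr1.

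Set beside each other, TRPV4-KO and GSK219 livers differed in 0.106% of the genes tested (16 genes), none of them a member, although 2 members had an unadjusted p under 0.05, as had 925 of the 15118 genes. Fos had a log2 difference of -1.06 ± 0.40 (SE; edgeR, adjusted p = 0.749), and the TRPV4-KO livers lay below all GSK219 livers. Egr1 differed by -1.58 ± 0.64 (SE; edgeR, adjusted p = 0.801), with overlap. The other 6 lay between -0.55 (Junb) and 0.35 (Myc), and without TRPV4-KO replicate 3 Junb differed by -1.09 with an adjusted p of 0.0451.

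**Figure D4:**
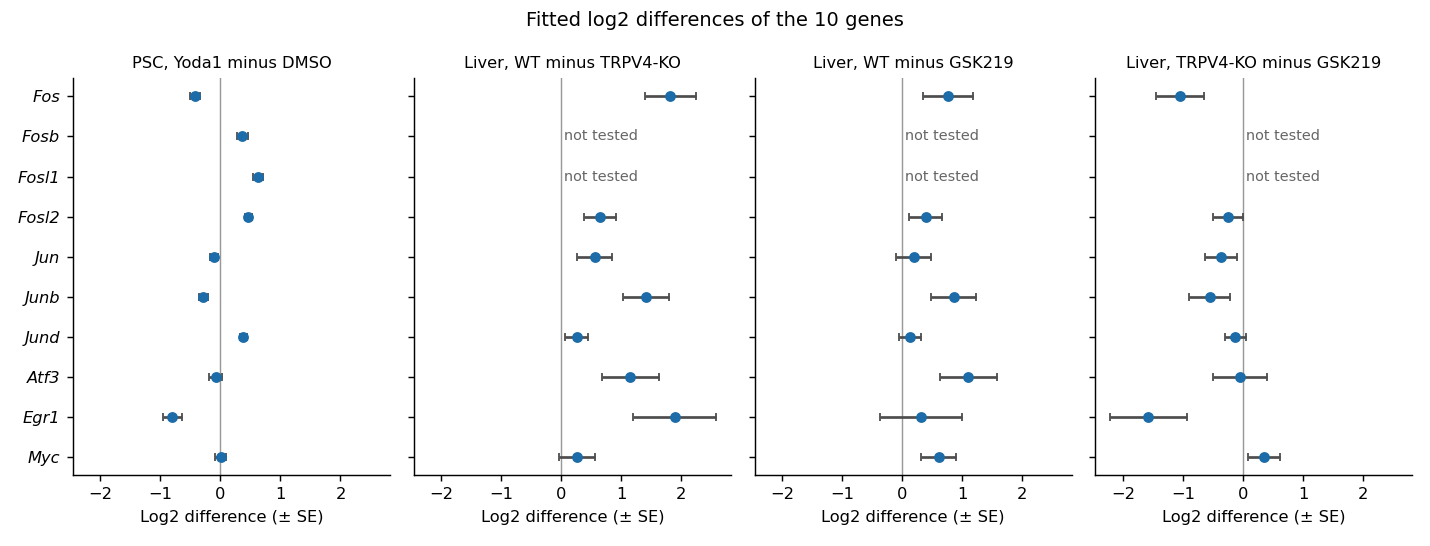
Fitted log2 differences of the 10 genes with their standard errors, from limma with the preparation as a block in PSCs and from edgeR in livers, where Fosb and Fosl1 were not tested. The standard errors in PSCs were at most 0.16 (Egr1), and those of WT minus TRPV4-KO livers reached 0.70 (Egr1).

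Reads on Xist and on Y-linked genes divided the livers into 3 with Xist, namely replicate 1 of WT and replicate 3 of each other group, and 5 with Y-linked reads. Within the livers with Xist reads, 1 liver per group and so with no test, the log2 CPM of WT minus TRPV4-KO was 0.88 for Fos, 0.56 for Junb, 2.33 for Egr1 and 1.96 for Atf3. Within those with Y-linked reads, 1 WT against 2 TRPV4-KO livers, it was 2.35 for Fos, 2.09 for Junb, 1.64 for Egr1 and 0.29 for Atf3. The WT minus GSK219 difference of Egr1 was 2.20 in the first kind and -0.09 in the second.

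The livers also differed in the markers of cell types. The 11 neutrophil markers summed to 64.2 and 78.0 CPM in WT replicates 1 and 2 (the order used for each list), 1.58 to 7.64 CPM in TRPV4-KO and 2.58 to 7.05 CPM in GSK219 livers. Of these markers 6 were at 0 in TRPV4-KO replicate 1 (Mpo, Elane, Ly6g, Camp, Ltf and Ngp), and none in the WT livers. The 8 Kupffer cell markers summed to 1734 and 1518 CPM in WT, 410.4 to 910.0 CPM in TRPV4-KO and 443 to 1042 CPM in GSK219, and the 8 leukocyte markers to 783 and 633, 209 to 429 and 209 to 500.0 CPM. Of the 8 leukocyte markers, 6 had a higher and 2 a lower mean in WT than in TRPV4-KO, 5 and 1 of them without overlap. The 8 duct or tumor epithelium markers summed to 719.8 and 695 CPM in WT, 449 to 688 in TRPV4-KO and 518 to 650.5 in GSK219, and the 7 endothelial markers to 497 and 448, 284 to 442 and 330.1 to 459. Of the 8 duct or tumor epithelium markers, 6 had a higher and 2 a lower mean in WT than in TRPV4-KO, only 1 without overlap. Of the 8 acinar markers, up to 6 were at 0, and their sums overlapped (7.86 to 17.3 CPM in WT, 9.84 to 19.9 in TRPV4-KO and 16.5 to 25.3 in GSK219). Stellate cell or fibroblast markers (12 genes) summed to 638 and 423 CPM in WT, 156 to 350.0 in TRPV4-KO and 202 to 321 in GSK219. The sum of the 8 hepatocyte markers was 61495 and 52082 CPM in WT, 74185 to 94790 CPM in TRPV4-KO and 71775 to 82045 CPM in GSK219. Singly, 7 of the 8 had a lower mean in WT than in TRPV4-KO, with a median log2 difference of -0.17, 1 of them without overlap, and edgeR called 0 (1 with an unadjusted p under 0.05) and DESeq2 1 lower. In whole liver, fewer cells of a type and less RNA per cell cannot be told apart, and the part of these cells in the levels of Fos, Junb, Egr1 and Atf3 was not tested.

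Of the other immediate early genes, 44 were tested in liver. edgeR called none higher in WT and 1 lower than in TRPV4-KO, while 33 had a higher mean in WT and the median log2 difference was 0.29. The gene called was Per1, a clock gene that glucocorticoids and cAMP also induce. It had 410 and 571 counts in WT, 1555, 1102 and 1314 in TRPV4-KO and 566, 796 and 800 in GSK219, a WT minus TRPV4-KO difference of -1.48 ± 0.21 (SE; edgeR, adjusted p = 0.039). This call was lost on leaving out any 1 of the 8 livers except TRPV4-KO replicate 3, with adjusted p-values up to 0.371, and with only the groups compared in the fit (0.123). DESeq2 called 8 genes of the list higher and 1 lower, where it called 3.21% of all genes higher in WT.

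Of 13 tested AP-1 targets, 12 had a higher mean in WT than in TRPV4-KO, with a median of 0.94. edgeR called none of them (7 with an unadjusted p under 0.05, as had 2586 of all 15118 genes). DESeq2 called 4 higher and 1 lower, where it called 3.21% of all genes higher in WT. The 20 MYC targets had a median of -0.31, with 16 lower in WT and none called by edgeR (7 with an unadjusted p under 0.05), while DESeq2 called 1 higher and 1 lower. The medians were 0.27 for the 11 other AP-1 and small Maf genes, 0.20 for the 12 EGR1 cofactors and targets, 0.11 for the 9 MYC partners, 0.15 for the 13 ATF4-ATF3 stress genes and -0.08 for the 27 upstream kinases and factors. edgeR called no gene of these lists in this comparison, with 1, 6, 2, 2 and 4 genes at an unadjusted p under 0.05 in the same order. DESeq2 called 2 of the EGR1 list higher and 1 lower, 1 of the upstream list lower and none of the other 3 lists. edgeR called no list gene between WT and GSK219, where 0 to 10 genes of a list had an unadjusted p under 0.05, or between TRPV4-KO and GSK219, where 0 to 6 did. DESeq2 called 3 of the other immediate early genes higher in WT than in GSK219, and 2 higher and 1 lower in TRPV4-KO than in GSK219.

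**Figure D5:**
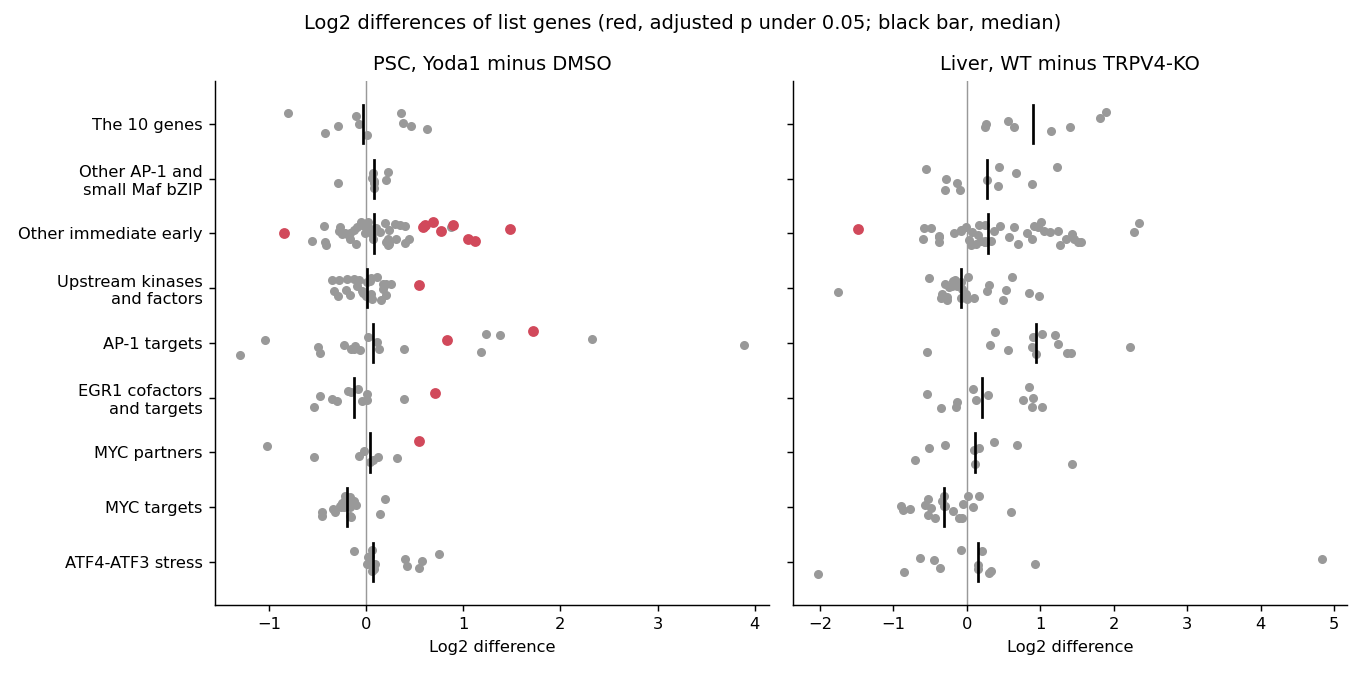
Log2 differences of the 10 genes and of the genes tested in each fixed list, in PSCs (left) and in WT minus TRPV4-KO livers (right), with genes called in red and the list median as a black bar. In PSCs the red points are calls by limma with the replicate block, 8 higher and 1 lower among the 48 other immediate early genes, and in the livers the 8 tested members have a median of 0.90 and the AP-1 targets of 0.94.

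The pattern of each member across libraries was also set beside that of every other tested gene, by Pearson's r of the log2 level over the 8 livers and, separately, over the 6 PSC libraries. These libraries share group, preparation and depth, so r is a description. Among the 3 closest genes of each member, r ran from 0.935 to 0.985 in livers and from 0.982 to 0.9998 in PSCs. Fos was nearest to Maged1, Tmem102 and Tsr3 in livers and to Triqk, Limd1 and Ptrhd1 in PSCs. For Fosl2 these were Mtr, Zfp202 and Glg1 in livers, and in PSCs Klf2 (r = 0.9998), Mmd and G6pdx. Klf2 is the factor that rose with Yoda1 above.

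For Jun the closest genes were Gm18588, Sympk and Slc48a1 in livers and Ubr1, Atp5mpl and 1700003E16Rik in PSCs. Junb was closest to Zfp36l2, Actg1 and Klhl36 in livers and to Rap1gap2, Mfap4 and Kremen1 in PSCs. Jund lay beside Cpn2, Gm527 and Dirc2 in livers and beside Abca7, Aldoc and Zer1 in PSCs. Atf3 went with Specc1, Gldn and Gm32856 in livers and with Gm14057, Stx7 and Ficd in PSCs. Egr1 had Ttll1, Sp5 and Zfp777 as its closest genes in livers and Kat8, Zcrb1 and Zc3h15 in PSCs. Myc had Gpx8, Plekhg2 and BC049715 in livers and Chac1, Arl2 and Tbc1d20 in PSCs. Only PSCs allowed the comparison for Fosb, nearest to Tnks2, Mlh3 and March9, and for Fosl1, nearest to Tkt, Kansl2 and Fth1.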

How the data were processed

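RNA-Seq of 8 mouse livers and 6 PSC libraries was analyzed. For the livers, the authors deposited raw counts of reads per gene. The stellate cell file holds a deposited signal, in which each library's gene counts stand divided by its own size factor. All 98886 values (100%) were whole multiples of a step to within 0.05 reads, so reads could be recovered. Their own fold changes (log2), standard errors, test scores and p-values in the same file were deposited by the authors and were not used. The submitters' processing notes name HISAT2 2.0.5 and Trim Galore, and the counting tool is not given in the sources used here. The Methods describe sequenced PSCs as human where the labels give mouse. A further 7 liver columns matched no labelled sample and were not used.

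Samples were grouped by their labels. PSC values were compared with limma 3.58.1 (R 4.3.3) on log2(value + 1), keeping genes whose value reached 10 in 3 or more libraries, with the preparation named in the labels as a replicate block. This scale understates the change of low genes. Libraries of the same preparation deviated together (r across genes of 0.43, 0.26 and 0.53). Liver counts were tested with edgeR 4.0.16 (TMM, minimum count 10, robust quasi-likelihood fit of all 8 livers). Differences are those of WT minus TRPV4-KO, WT minus GSK219, TRPV4-KO minus GSK219 and Yoda1 minus DMSO. A gene was called at a Benjamini-Hochberg adjusted p under 0.05 over all genes tested. Nothing says that the livers were other than separate mice, and p-values measure the spread between these samples. Overlap between groups was judged on values scaled to library size. Per-length levels used CPM with TMM factors.

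The 10 genes and all lists were chosen with earlier results of these data known. All 10 are named in every comparison. Of each list, at most 5 genes called are named, by smallest p, beside the 3 genes closest to each member by r. Exceptions are said to be so where they stand.

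In simulated data for the 15118 liver genes, edgeR recovered 14% of 50 genes changed 2-fold and 94% of 50 changed 4-fold between WT and TRPV4-KO, with 7 false calls. For the 15145 PSC genes, limma with the block recovered 0% at 1.5-fold and 70% at 2-fold, with 7 false calls, and edgeR on reads 68% and 90%, with 8 false calls. Both simulations used a preset spread, so recovery in the real libraries can differ. Alternatives were DESeq2 1.42.0, other size factors, pseudocounts and filters, the replicate block, only the groups compared, a term for Xist or Y-linked reads, a log2 fold change over 1 and each sample left out in turn. Counts without molecular identifiers are not independent molecules.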

Additional observations from a re-analysis of the deposited data

How the results depend on the processing

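In PSCs, limma with the preparation as a block called 605 genes and none of the 10 described. With no replicate block 355 genes and 2 of the 10 (both higher) were called, with a pseudocount of 10 1133 genes and 3 higher, with edgeR on reads 2739 genes with 3 higher and 3 lower, and with DESeq2 on reads 2064 genes with 3 higher and 2 lower. A log2 fold change over 1 left 229 genes. With no filter on low values, and on leaving out any preparation, 0 genes were called and 0 of the 10. Fewer preparations leave fewer degrees of freedom, and for the filter the cause was not tested. The log2 difference of Myc ran from -0.0769 to 0.10 over these omissions and turned negative without preparation 1 or 2, while the signs of the other 9 held under every alternative.

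Between WT and TRPV4-KO livers, 2 members were called higher by DESeq2 and 1 with no filter on low counts, and leaving out a liver gave 0 to 2, the 2 being Fos and Junb without TRPV4-KO replicate 3. The 44 genes called became 830 by DESeq2, 198 with no filter, 20 with only the groups compared, 535 with a term for Xist or Y-linked reads and 3 to 1291 on leaving out a liver, with 1291 without TRPV4-KO replicate 3, 3 without WT replicate 2 and 4 without WT replicate 1. The liver numbers did not pair the samples (correlations of same-numbered livers ran from -0.48 to 0.58), and the replicate block called 531 genes, none of them a member. For WT against GSK219 the count of 0 genes became 115 by DESeq2, 9 with no filter, 2 with only the groups compared, 9 with the replicate block, 4 with the Xist or Y-linked term and 0 to 2 on leaving out a liver. For TRPV4-KO against GSK219 the 16 genes became 136 by DESeq2, 44 with no filter, 45 with the Xist or Y-linked term and 8 to 141 on leaving out a liver, with 0 to 1 member called lower in TRPV4-KO. The cause of these moves was not tested. With 1 WT liver left, that liver is assumed to vary like the other groups.

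The sign of every tested member held in WT against TRPV4-KO under these alternatives, but sizes moved on leaving out a liver. Atf3 ran from 0.50 (adjusted p = 0.915, without WT replicate 1) to 1.62, Jun from 0.30 (without TRPV4-KO replicate 3) to 0.82, Jund from 0.0701 (without WT replicate 2) to 0.44 (without WT replicate 1) and Myc from 0.12 (without TRPV4-KO replicate 3) to 0.50 (without TRPV4-KO replicate 1). Against GSK219, leaving out a liver gave differences from WT of -0.12 to 1.30 for Egr1 and -0.0733 to 0.29 for Jund. The same omissions gave 0.19 to 1.15 for Fos, 0.43 to 1.58 for Atf3, 0.15 to 0.67 for Fosl2 and 0.08 to 0.35 for Jun. The small TRPV4-KO minus GSK219 differences turned positive for Atf3 with the replicate block (0.012) and with the Xist or Y-linked term (0.0465), and ran from -0.25 to 0.43 for Atf3, -0.49 to 0.0264 for Fosl2 and -0.23 to 0.00712 for Jund on leaving out a liver. The larger ones ran from -2.01 to -0.58 for Egr1, -1.27 to -0.67 for Fos and -1.09 to -0.34 for Junb. Fosb and Fosl1 had too few counts in liver to be tested. In the simulated PSC data, limma recovered 0% of genes changed 1.5-fold where edgeR on the simulated reads recovered 68%. These data had a preset spread and few changed genes, so these shares need not hold for the real libraries. There limma called Crem and Mxi1 at log2 differences of 0.55 and 0.54. Of the 10 genes, all changed under 2-fold, limma with the block called none and edgeR 3 higher and 3 lower, so these calls depended on the test.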
